A study of Mus musculus with 9 samples.

Results

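Cerebral cortex of E13.5 mouse embryos homozygous for an Sfpq mutation was compared with cortex of heterozygous embryos, so that the comparison is about loss of the second Sfpq copy. The libraries were chosen by genotype label alone: 3 homozygous (Sfpq-/-) and 3 heterozygous (Sfpq+/-) libraries, 6 of the 9 libraries in the series. The other 3 come from control embryos and are used only to set the step from control to heterozygous beside the step from heterozygous to homozygous. All embryos are labelled with the mixed strain C57BL/6+C57BL/6J+CBA, and the material with the cell type "neuronal stem cell + neuron", that is, whole cortical tissue holding both progenitors and neurons. The label "control" does not give the Sfpq alleles, while which part of the gene is deleted, and by which driver, is in none of the labels used here. The extraction text names Sfpq+/- for both mutant groups, while the titles and the genotype field set homozygous and heterozygous knockouts apart and were used; Sfpq RNA, given below, differs between them. Each library is labelled as a separate replicate of its genotype, and the p-values measure the spread between these samples.

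Sfpq binds RNA in the nucleus and belongs to the DBHS (Drosophila behaviour, human splicing) family, whose other mammalian members are Nono and Pspc1. These proteins pair with each other through their shared RNA-binding and coiled-coil domains, gather with other nuclear RNA-binding proteins in paraspeckles built on the Neat1 RNA, and take part in transcription, splicing and DNA repair. At this stage of cortical development radial glia divide along the ventricle, intermediate progenitors divide above them, and young excitatory neurons migrate outwards and extend axons, with many very long genes of adhesion and synapse assembly coming on.

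Levels are RPKM (reads per 1e6 reads and per kilobase of transcript), as the authors deposited them. Changes are differences of mean log2(RPKM + 0.5), homozygous minus heterozygous, with their standard error (SE), and this scale understates the change of genes with low values. Estimated depths ran from 167.8 to 194.8 M reads (M, 1e6) in the 6 libraries. The first principal component separated the genotypes and held 75.4% of the variance, and homozygous replicate 3 lay apart from the other homozygous libraries on the second, which held 8.15%. By Xist and Y-linked genes the heterozygous embryos were 3 males, and the homozygous embryos were 1 female (replicate 1) and 2 males, so leaving out homozygous replicate 1 also compares males only. The controls were 2 females and 1 male, so that the step from control to heterozygous cortex differs in sex as well as genotype. The tissue label was checked against cortical markers: the progenitor factors Pax6 and Eomes were at 27.9 ± 1.57 and 31.4 ± 0.806 RPKM and the neuronal factors Neurod6 and Tbr1 at 121 ± 9.95 and 7.11 ± 0.484 RPKM in heterozygous cortex (SD, n = 3 each). RNA of tissue around the cortex was also present in each of the 6 libraries, with Ttr of the choroid plexus at 366 to 521 RPKM and Col3a1 of the meninges at 72.6 to 97.3 RPKM. In such tissue samples, fewer cells of a type and less RNA per cell cannot be told apart.

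Sfpq RNA measured 168, 149 and 151 RPKM in heterozygous cortex against 23.8, 25.7 and 25.4 RPKM in homozygous cortex. Every homozygous library was thus far below every heterozygous one, as the labels require, and the homozygous mean of 24.96 ± 1.06 RPKM was 16.0% of the heterozygous mean of 156 ± 10.6 RPKM (SD, n = 3 each). The log2 difference of -2.62 ± 0.06 (SE) passed with limma (adjusted p = 1.54e-08). In a two-sided exact permutation test p was 0.1, which is the lower limit for groups of 3. The controls were at 168, 187 and 201 RPKM and touched the heterozygous range, and the step from control to heterozygous of -0.25 did not pass (limma adjusted p = 0.665). The RNA left in homozygous cortex can include reads from a part of the gene that the mutation keeps.

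Pspc1 rose as Sfpq fell. It went from 142, 131 and 126 RPKM to 252, 259 and 274 RPKM in the homozygous libraries, with no overlap and a change of 0.97 ± 0.06 (SE, limma adjusted p = 2.01e-06). In the controls it was at 100 to 103 RPKM, below every heterozygous library, although the first step of 0.39 did not pass over all transcripts (limma adjusted p = 0.261). Nono, the most abundant of the 3 relatives in homozygous cortex, had a mean of 376 ± 27.8 RPKM in heterozygous and of 391 ± 12.2 RPKM in homozygous embryos (SD, n = 3 each). Its groups overlapped and the change of 0.06 ± 0.06 (SE) did not pass (limma adjusted p = 0.5001).

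The promoters of both changed DBHS genes are shown as a description. Sfpq is itself the mutated gene, and a link between promoter letters and RNA change was not tested. Each is the 300 bases from 250 before to 50 after the RefSeq start (RefSeq, GRCm38.p6), with the letters CCAAT (the CCAAT box) and its reverse complement ATTGG in capitals, searched on both strands with overlaps counted. The Sfpq promoter lies at chr4:127021051-127021350 on the plus strand and the Pspc1 promoter at chr14:56778269-56778568 on the minus strand.
Sfpq: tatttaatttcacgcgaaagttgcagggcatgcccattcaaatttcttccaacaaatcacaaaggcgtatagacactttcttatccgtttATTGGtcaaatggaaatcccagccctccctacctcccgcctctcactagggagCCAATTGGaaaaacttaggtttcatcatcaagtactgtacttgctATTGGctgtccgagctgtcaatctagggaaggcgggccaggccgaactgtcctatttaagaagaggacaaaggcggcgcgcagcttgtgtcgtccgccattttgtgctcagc
Pspc1: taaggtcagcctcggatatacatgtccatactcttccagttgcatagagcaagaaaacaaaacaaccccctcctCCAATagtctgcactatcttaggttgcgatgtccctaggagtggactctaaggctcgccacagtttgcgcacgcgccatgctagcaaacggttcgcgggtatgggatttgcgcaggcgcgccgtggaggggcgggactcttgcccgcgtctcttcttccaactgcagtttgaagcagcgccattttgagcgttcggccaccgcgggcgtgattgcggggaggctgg
The Sfpq window held 4 matches, of which 2 overlap as CCAATTGG, and the Pspc1 window 1 match. Of all 32851 promoters of this length, 37.4% held at least 1 match.

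**Figure D1:**
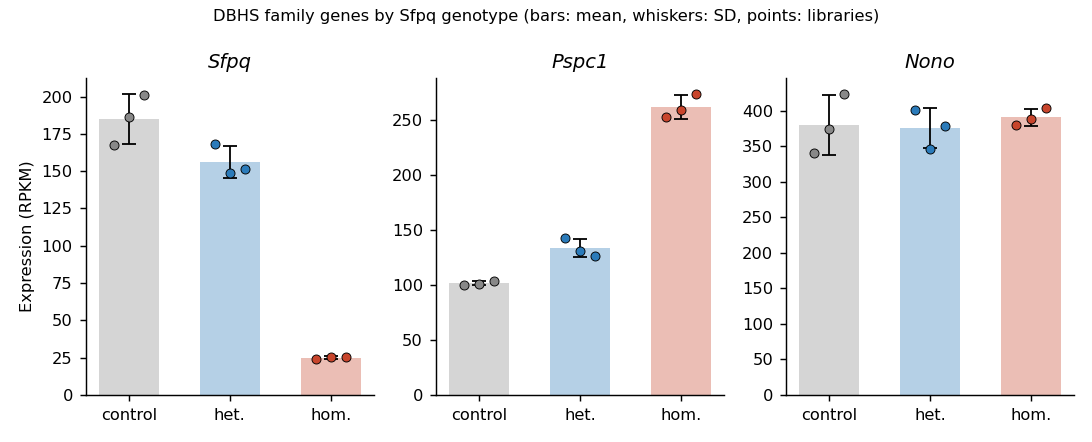
RPKM of Sfpq, Pspc1 and Nono in control, heterozygous and homozygous cortex (points: libraries; bars: mean; whiskers: SD, n = 3). Sfpq is at 23.8 to 25.7 RPKM in the homozygous libraries only, Pspc1 is highest there, at 252 to 274 RPKM, and the Nono libraries overlap between genotypes.

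Among 14 tested genes of the DBHS and paraspeckle list, 3 were lower and 3 higher in homozygous cortex, beside 17.8% of all genes tested that were lower and 14.5% that were higher. Matr3, a nuclear matrix RNA-binding protein, rose from 325, 318 and 327 RPKM to 428, 423 and 455 RPKM (0.43 ± 0.05 SE, limma adjusted p = 0.000131). Rbm14, a paraspeckle protein needed for their assembly, changed by 0.29 and the RNA-binding protein Dazap1 by -0.28. The nuclear RNA Malat1 was at 588, 408 and 395 RPKM in heterozygous and 366, 315 and 349 RPKM in homozygous cortex, a change of -0.41 ± 0.13 (SE, limma adjusted p = 0.0370), with heterozygous replicate 1 the highest by far. The calls of Malat1, Dazap1 and Rbm14 were uncertain, and were lost under 7, 8 and 5 alternatives (limma adjusted p up to 0.122, 0.136 and 0.0703). With median centring, and without homozygous replicate 1 or 2, Sfpq was the only lower member. The calls of Malat1 and Dazap1 were both lost with sex in the model and with no level filter as well. Neat1 was below the level filter and was not tested.

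Loss of the second copy changed about as many genes downwards as upwards, but the large changes were mostly falls. Of 17716 transcripts with a mean of at least 0.5 RPKM, 3249 (18.3%) were lower and 2575 (14.5%) higher in homozygous cortex (limma, Benjamini-Hochberg adjusted p below 0.05). Read from 1 transcript per gene, 2156 of 12130 genes (17.8%) were lower and 1760 (14.5%) higher, and the libraries of the genotypes did not overlap for 5627 genes (46.4%). At least 2-fold changes were found for 256 of the lower and 88 of the higher genes. Centring each library on its median turned the split of genes to 1706 lower and 2930 higher, and quantile normalization to 1920 lower and 2387 higher, so the balance of small changes depends on the scaling. In the comparison of heterozygous with control cortex, limma called 0 genes (0%), with 684 genes at an unadjusted p below 0.05 (5.64%).

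Apart from Sfpq, the 11 steepest falls were all in genes spanning at least 100 kb, and they include receptors, adhesion proteins and transcription factors of developing neurons. Ankrd6 (diversin), a regulator of Wnt and planar polarity signalling spanning 147 kb, went from 10.1, 8.80 and 9.75 RPKM to 1.10, 1.11 and 1.61 RPKM, a change of -2.51 ± 0.11 (SE, limma adjusted p = 4.09e-07). Mpped2, a metallophosphoesterase gene spanning 175 kb, went from 16.4, 17.6 and 20.99 RPKM to 2.75, 2.96 and 3.00 RPKM (-2.46 ± 0.09 SE). Hs6st2, which adds sulfate to heparan sulfate chains and spans 295 kb on the X chromosome, went from 10.6, 11.4 and 11.8 RPKM to 1.53, 1.77 and 1.83 RPKM (-2.41 ± 0.08 SE). For all 3 genes the homozygous values lay close together and far below the lowest heterozygous value.

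The netrin receptor Dcc, spanning 1097 kb, went from 8.29, 9.01 and 11.1 RPKM to 1.42, 1.56 and 1.35 RPKM (-2.35 ± 0.11 SE), and its mean was then 15.2% of the heterozygous mean. Ctnna2, the neuronal alpha-catenin that links cadherins to actin, spans 1098 kb and went from 33.3, 26.7 and 27.4 RPKM to 4.79, 5.02 and 6.61 RPKM (-2.32 ± 0.12 SE). The homeobox factor Meis2 went from 44.1, 39.3 and 41.1 RPKM to 7.996, 7.97 and 9.25 RPKM (-2.24 ± 0.07 SE). The same size of change was measured for the ephrin receptor Epha5, from 33.2, 37.6 and 34.6 RPKM to 6.55, 7.41 and 7.21 RPKM. Npas3, a transcription factor of neural progenitors spanning 823 kb, was the most depleted of these genes relative to its starting level: it went from 3.59, 3.32 and 3.59 RPKM to 0.376, 0.356 and 0.366 RPKM, 10.4% of the heterozygous mean. The last 3 were the cytosolic DNA sensor gene Aim2 (-2.15), the splicing regulator Khdrbs2 (-2.12) and the phospholipase gene Plcb1 (-2.12). All of these values chose the genes, as the ones with the largest falls without overlap, and are given as a description.

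**Figure D2:**
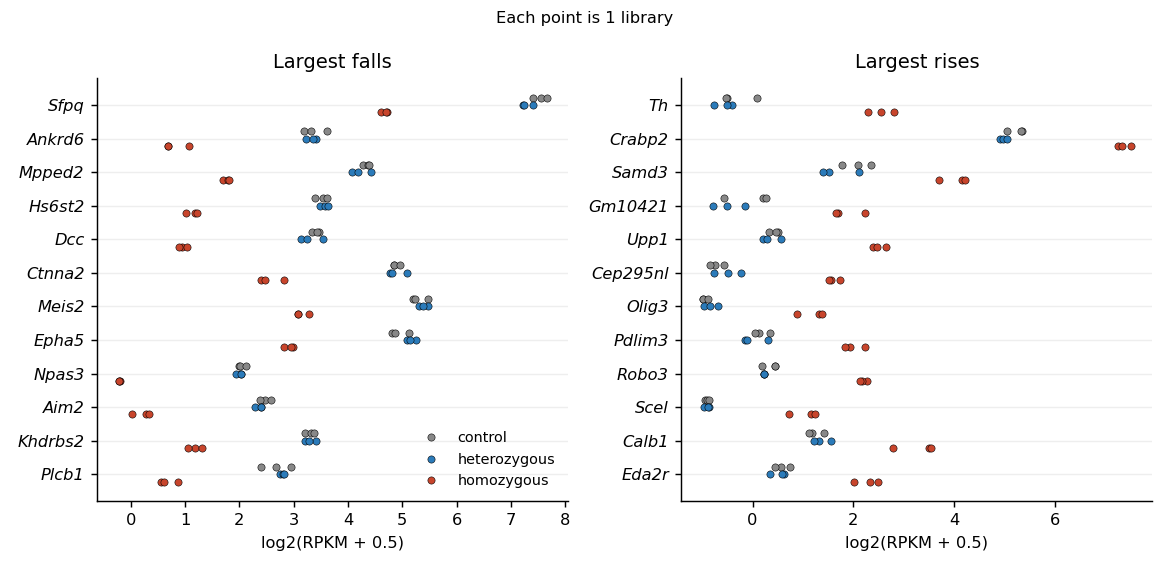
log2(RPKM + 0.5) of the 12 genes with the largest falls (left) and the 12 with the largest rises (right) in homozygous against heterozygous cortex; each point is 1 library, in colour by genotype. The control and heterozygous points lie together and the homozygous points apart, as the choice of genes without overlap requires for the homozygous and heterozygous libraries.

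Among genes of at least 200 kb, those with the smallest adjusted p included genes outside neuronal functions. Nsmce2, a SUMO ligase of the SMC5-SMC6 repair complex, had the most even values, 36.7, 36.1 and 35.6 RPKM in heterozygous and 9.37, 9.84 and 9.88 RPKM in homozygous cortex (-1.85 ± 0.05 SE, limma adjusted p = 6.66e-08). Msi2, an RNA-binding protein of neural stem cells, fell from 40.0 ± 2.34 to 10.4 ± 0.499 RPKM (SD, n = 3 each), a change of -1.89. Slc35f1, a solute carrier gene of the brain, changed by -2.11, and Msra, which repairs oxidized methionine, by -2.01. The spans of these genes, Dcc and Ctnna2 run from 227 to 1098 kb. For the genes of repair, RNA binding and redox metabolism, a long span follows from the choice among genes of at least 200 kb.

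The share of genes that fell grew with genomic span from 30 kb on. Of 3237 genes under 10 kb 11.2% were lower and 17.8% higher, and of 3897 genes of 10 to 30 kb 11.9% were lower and 15.3% higher. From 30 to 100 kb 18.3% of genes were lower, from 100 to 200 kb 32.6%, from 200 to 500 kb 59.8%, and at 500 kb and over 84 of 114 genes, or 73.7%. The median change went from 0.05 in the shortest class to -0.09 at 100 to 200 kb, -0.39 at 200 to 500 kb and -0.70 at 500 kb and over. In the longest class 1 gene was higher. Longer genes also lay nearer the level filter of 0.5 RPKM. The median heterozygous level was 6.99 RPKM under 10 kb and 2.23 RPKM at 500 kb and over.

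Most large falls were in long genes. Of the 256 genes that fell at least 2-fold, 194 (75.8%) span at least 100 kb, as do 13.4% of all genes tested, and their median span was 212.5 kb against 22.8 kb for all genes tested. Of the 88 genes that rose at least 2-fold, 11 (12.5%) span at least 100 kb. The share also varied with the length of the mature transcript: among genes of at least 100 kb, 69.1% of those with 1 to 2 kb of exonic sequence were lower, 54.1% with 2 to 4 kb, 39.3% with 4 to 8 kb and 34.7% with 8 kb and over. Among shorter genes 11.7% to 14.6% were lower in the same classes.

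To keep embryos as replicates, the median log2 level of genes of at least 100 kb minus that of shorter genes, both relative to the heterozygous mean, was taken in each library. It was -0.25, -0.20 and -0.18 in the homozygous libraries, -0.01, -0.01 and 0.02 in the heterozygous libraries and -0.07, -0.03 and 0.01 in the controls. The homozygous and heterozygous groups did not overlap, with a difference of -0.21 and a two-sided exact permutation p of 0.1, the smallest this design allows. With no level filter the difference was -0.12. Heterozygous and control libraries overlapped (difference 0.03, exact permutation p = 0.4).

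**Figure D3:**
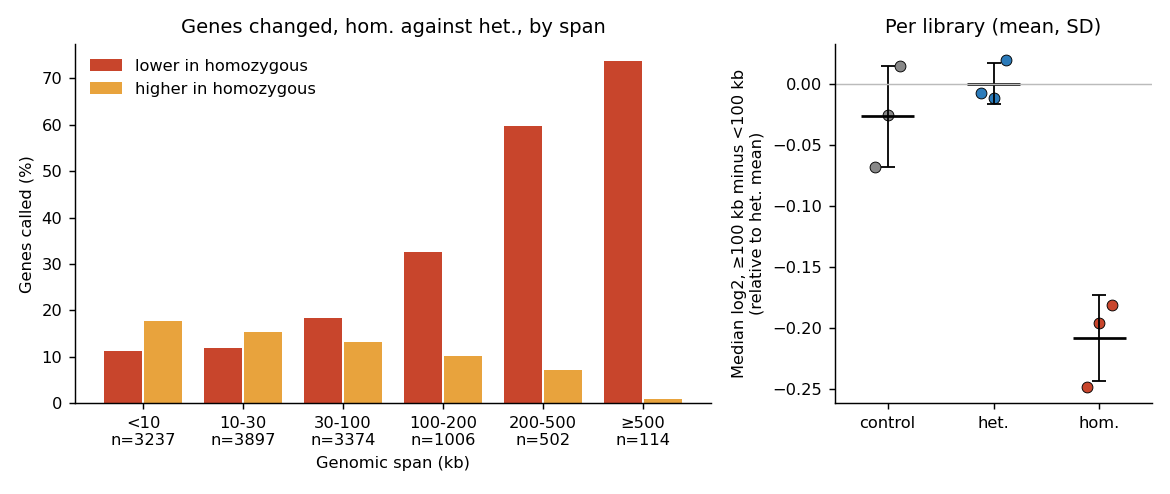
Left, the percentage of genes lower and higher in homozygous against heterozygous cortex by genomic span in kb, with the number of genes tested under each class. Right, the median log2 level of genes of at least 100 kb minus that of shorter genes in each library (points), with mean and SD by genotype; the homozygous libraries lie at -0.25 to -0.18 and the others near 0.

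A minority of long genes went the other way. The 6 genes of at least 100 kb with the largest rises were the kinase Dapk2 (1.62), the homeobox partner Pbx3 (1.60), the cGMP-dependent kinase Prkg2 (1.55), the filamin-interacting Filip1 (1.53), the homeobox factor Meis1 (1.36) and Plcl2 (1.36), a phospholipase C-like protein. Plcl2 was at 14.5, 14.5 and 13.9 RPKM in heterozygous and 40.6, 33.02 and 39.4 RPKM in homozygous cortex, and Dapk2 was at 1.16, 1.16 and 1.23 RPKM and 4.81, 4.32 and 4.91 RPKM. Meis1, spanning 139 kb, rose from 4.05, 2.21 and 2.04 RPKM to 7.90, 6.18 and 8.99 RPKM while its relative Meis2, spanning 203 kb, fell. Spans of these 6 genes ran from 108 to 199.8 kb, and the longest gene tested that rose within the very long neuronal list was Cntnap2 (2244 kb, 0.34 ± 0.08 SE).

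Transcripts of 1 gene seldom went in opposite directions. Of 2980 genes with at least 2 tested transcripts, 11 had at least 1 transcript higher and at least 1 lower. Between the largest fall and the largest rise of each gene, the lower transcript spans more in 9 of the 11. For the non-coding host gene Mir100hg, 1 transcript changed by -0.76 and another, of 55.5 kb, by 1.11. The first had no span of its own, so the 239 kb of the whole RefSeq gene stood in for it. Mir100hg counts among the 9 genes on that gene span. For the polarity gene Patj, the transcript of 173 kb changed by -0.60 and that of 58.8 kb by 0.62 (limma adjusted p at most 0.0101 and 0.00154 under the alternatives). Yet the coding Patj transcript of largest span, from which the gene was read, was higher. It changed by 0.21 to 0.31 with 1 library left out, and its call was lost under 5 alternatives (limma adjusted p up to 0.125). Long and short Patj transcripts thus did not split by span alone. Mrtfb, a cofactor of serum response factor, had transcripts of similar span, 59.1 kb at -0.29 and 67.8 kb at 1.35; the fall lost its call under 4 alternatives (limma adjusted p up to 0.0738). Rims2, which organizes transmitter release sites, was the other exception, with a transcript of 483 kb at 1.09 and one of 24.8 kb at -0.28, whose call was lost under 6 alternatives (limma adjusted p up to 0.117). How the authors' program shared reads between transcripts of 1 gene is not stated in the labels, and these splits are uncertain.

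Falls of at least 2-fold were not limited to long genes. Under 30 kb, 23 genes fell at least 2-fold with no overlap, named here after their values were seen. They include Cabp1, a neuronal calcium sensor, from 16.4 ± 2.04 to 3.79 ± 0.551 RPKM, the splicing factor Srsf4, from 21.3 ± 3.03 to 6.01 ± 0.715 RPKM, the small GTPase gene Rnd1, from 3.79 ± 0.506 to 1.08 ± 0.0958 RPKM, and the cell cycle inhibitor Cdkn2c, from 7.35 ± 0.334 to 2.48 ± 0.185 RPKM (SD, n = 3 each). Lzts1 and Zbtb18, which act in the differentiation of cortical neurons, changed by -1.27 and -1.09.

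The largest rise was that of Th, tyrosine hydroxylase, the rate-limiting enzyme of catecholamine synthesis. Th was at 0.257, 0.0920 and 0.200 RPKM in heterozygous and at 5.33, 4.38 and 6.48 RPKM in homozygous cortex, a change of 3.10 ± 0.14 (SE, limma adjusted p = 3.93e-07). The heterozygous libraries were near 0, and every homozygous library was well above them. The Th promoter at chr7:142899946-142900245 on the minus strand (RefSeq, GRCm38.p6) is shown because of this change, with its cAMP response element, the palindrome TGACGTCA, in capitals.
Th: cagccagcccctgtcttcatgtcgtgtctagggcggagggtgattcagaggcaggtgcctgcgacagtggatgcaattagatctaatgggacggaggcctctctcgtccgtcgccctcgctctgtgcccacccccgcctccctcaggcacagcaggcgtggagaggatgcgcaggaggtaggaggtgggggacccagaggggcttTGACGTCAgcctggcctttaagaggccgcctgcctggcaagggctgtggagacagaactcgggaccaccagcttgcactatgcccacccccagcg
The element starts 45 bases before the RefSeq start, and 1.79% of the 32851 promoters held these letters on either strand. The match describes this window and says nothing of which factor was bound.

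Crabp2, a retinoic acid carrier, was the most abundant of the large risers, at 29.5, 30.9 and 32.4 RPKM in heterozygous and 182, 153 and 160 RPKM in homozygous cortex (2.39 ± 0.07 SE, limma adjusted p = 6.66e-08). Calb1, the calcium buffer calbindin, went from 1.98, 2.44 and 1.84 RPKM to 10.9, 6.39 and 11.1 RPKM (1.91 ± 0.18 SE), with homozygous replicate 2 the lowest of its group. Olig3, a transcription factor of dorsal progenitors in the hindbrain, spinal cord and thalamus, went from 0.0137, 0.125 and 0.0534 RPKM to 2.01, 2.10 and 1.36 RPKM (2.03 ± 0.13 SE). Robo3, a Robo family receptor of commissural neurons, was at 0.676, 0.673 and 0.677 RPKM and rose to 4.30, 4.01 and 3.88 RPKM (1.96 ± 0.08 SE).

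The other large rises were Samd3 (2.35), the non-coding gene Gm10421 (2.33), Upp1, a uridine phosphorylase (2.15), Cep295nl (2.10), the muscle protein gene Pdlim3 (1.98), the epithelial gene Scel (1.95) and Eda2r, a receptor of the TNF family and p53 target (1.76). None of the 12 risers spans 100 kb; the longest is Scel at 99.4 kb. As with the falls, these genes were chosen for these values.

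Very long neuronal genes, a list of 70 adhesion, synapse and transcription factor genes of which 52 could be tested, had 46 lower members and 1 higher, with a median change of -1.04 against 0.00 for all genes tested. Their summed level was 343.9 to 354.1 RPKM in the heterozygous and 144.0 to 160.7 RPKM in the homozygous libraries. Of the 46, 12 had homozygous means under 0.5 RPKM and passed the level filter only through the heterozygous libraries; with a mean of at least 2 RPKM required, fewer genes were tested and 28 were lower. Apart from genes named above, Nlgn1 (-1.92), Grik2 (-1.91), Negr1 (-1.88) and Cadm1 (-1.86) had the largest falls. Nlgn1, a postsynaptic adhesion protein spanning 906 kb, went from 3.71, 4.22 and 3.86 RPKM to 0.674, 0.610 and 0.734 RPKM. The smallest called fall was that of Reln (-0.21), which lost its call under 6 alternatives, with limma adjusted p from 0.0126 to 0.0946.

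Axon guidance genes had 26 lower and 6 higher members of 47 tested, with a median of -0.35. Split by span, 20 of 27 members of at least 100 kb were lower and 1 higher (median -0.87), and of 20 shorter members 6 were lower and 5 higher (median 0.05). Among receptors, Robo2 went from 9.13, 7.96 and 9.45 RPKM to 2.38, 2.65 and 2.72 RPKM (-1.60 ± 0.09 SE), Robo1 changed by -0.80, Unc5d by -1.92, Ephb2 by -1.76 and Plxna4 by -1.51, while Robo3 and the netrin receptor Unc5b (0.58) rose. Among ligands, the semaphorins Sema5a (-2.05) and Sema5b (-2.02) fell most, followed by Slit1 (-1.14), netrin-1 (Ntn1, -1.08) and Slit2 (-1.05), and the ephrin Efnb3 rose by 0.78. Sema5a was at 3.98, 4.17 and 4.80 RPKM in heterozygous and at 0.540, 0.812 and 0.635 RPKM in homozygous cortex. Ligands and receptors of netrin and Slit signalling thus both hold members that fell. Of the 26 lower genes, 4 had homozygous means under 0.5 RPKM and passed the level filter only through the heterozygous libraries. These were Ntn1, Unc5a, Unc5d and Efna5, so the count of lower genes is partly set by the filter.

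Of 27 cell adhesion genes of neurons, 16 were lower and 1 higher (Flrt3, 0.47), with a median of -0.47. Of the 16, 2 (Cdh4 and Lrrtm4) passed the level filter only through the heterozygous libraries. Ncam1, the neural cell adhesion molecule, went from 20.4, 17.4 and 18.8 RPKM to 4.48, 5.26 and 6.72 RPKM (-1.71 ± 0.12 SE), and N-cadherin (Cdh2), the main cadherin of the ventricular surface, from 47.5, 48.0 and 51.0 RPKM to 26.1, 28.1 and 27.5 RPKM (-0.83 ± 0.05 SE). In the list of ion channels and neurotransmitter receptors 14 of 23 were lower and 0 higher (median -0.46). Kcnq3, a potassium channel of the M-current, was at 1.88, 1.85 and 1.66 RPKM in heterozygous and 0.215, 0.237 and 0.326 RPKM in homozygous cortex, and the kainate receptor Grik2 dropped from a mean of 9.16 ± 0.964 to one of 2.06 ± 0.0546 RPKM (SD, n = 3 each). Of the 14, 6 passed the level filter only through the heterozygous libraries, and 5 were lower when at least 2 RPKM was required. All 14 channel and receptor genes that fell span at least 100 kb, as do 19 of the 23.

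Of 27 genes of synaptic vesicles and active zones 8 were lower and 2 higher, and the median was -0.11. Of the 8, 3 (Syn1, Syn2 and Rims1) passed the level filter only through the heterozygous libraries. The vesicle priming factor Cadps, spanning 451 kb, had means of 13.8 ± 0.681 and 3.75 ± 0.459 RPKM (SD, n = 3 each), and the calcium sensor Syt1 changed by -0.83. Complexin Cplx2 (0.58) and Rims2 were the higher members, and Cplx2 lost its call under 2 alternatives, 1 of them without heterozygous replicate 3 (limma adjusted p up to 0.0606). Of the 9 members of at least 100 kb 6 were lower, and of the 18 shorter ones 2.

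Markers of cortical excitatory neurons changed in part: 9 of 23 tested were lower and 3 higher (median -0.14). Of the 9, 1 (Rbfox3) passed the level filter only through the heterozygous libraries. Nfib, a transcription factor of deep-layer neurons and glia, went from 41.8, 48.1 and 55.2 RPKM to 13.496, 15.8 and 15.2 RPKM (-1.66 ± 0.10 SE), Sox5 from 9.10 ± 0.851 to 2.98 ± 0.325 RPKM (-1.46), and Rbfox3, the antigen NeuN, from 1.06 ± 0.204 to 0.0997 ± 0.0136 RPKM (-1.37; SD, n = 3 each). These 3 span 216 to 420 kb. The higher members were Slc17a7 (0.60), Neurod1 (0.43) and Tle4 (0.35), and Neurod1 lost its call without heterozygous replicate 3 and under 2 other alternatives (limma adjusted p up to 0.0667). Short members fell as well: Neurod6 went from 129, 125 and 110 RPKM to 66.7, 55.5 and 72.8 RPKM (-0.90 ± 0.10 SE), and the subcerebral neuron factor Fezf2 from 4.56, 4.27 and 3.86 RPKM to 2.37, 2.58 and 2.40 RPKM (-0.68 ± 0.08 SE). Tbr1, the defining factor of early deep-layer neurons, was at 7.49, 7.27 and 6.56 RPKM and 7.08, 7.54 and 7.61 RPKM, overlapping between genotypes (limma adjusted p = 0.580). The summed level of the list was 890.5 to 987.0 RPKM in heterozygous and 711.0 to 881.5 RPKM in homozygous libraries, and the part of cell number in these changes was not tested.

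Markers of intermediate progenitors had 7 lower and 2 higher members of 16, with a median of -0.26. The proneural factor Neurog2, a gene of 2.5 kb, went from 62.5, 65.7 and 53.5 RPKM to 24.8, 28.1 and 20.7 RPKM (-1.29 ± 0.11 SE, limma adjusted p = 1.48e-05). Its relative Neurod4 changed by -1.21, Insm1, which drives the formation of these progenitors, went from 7.88, 7.53 and 7.23 RPKM to 4.06, 4.24 and 3.61 RPKM (-0.85), and Eomes (Tbr2), their defining factor, from 32.3, 31.1 and 30.8 RPKM to 20.7, 18.5 and 23.1 RPKM (-0.59). The Notch ligand Dll3 (0.80) and the membrane linker Ezr (0.57) were higher. The lower genes named here did not overlap between genotypes, which also held for 46.4% of all genes tested. Neurog2, Neurod4 and Insm1 were named for their small adjusted p, so their lack of overlap is only a description. Of the 16 members, 7 were not called.

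Of 22 radial glia markers 9 were lower and 2 higher (median -0.03). With median centring 5 were higher and the median was 0.03, and with 1 library left out 1 to 4 were higher, 1 of them without homozygous replicate 1. Pax6, the defining factor of these cells, was at 27.3, 26.7 and 29.7 RPKM in heterozygous and 29.4, 27.5 and 30.3 RPKM in homozygous cortex and did not pass (limma adjusted p = 0.508), while the intermediate filament Vim (0.37) and the homeobox factor Emx2 (0.29) were higher, the call of Emx2 being lost under 6 alternatives (limma adjusted p up to 0.0745). Ddah1, an enzyme of methylarginine breakdown spanning 136 kb, had the largest fall, from 7.12, 5.77 and 5.90 RPKM to 1.20, 1.38 and 1.405 RPKM (-1.88 ± 0.10 SE), followed by the matrix protein Tnc (-1.04). Lhx2, a selector gene of the cortex, fell from 47.1 ± 2.12 to 30.9 ± 1.66 RPKM (SD, n = 3 each, -0.60 ± 0.06 SE).

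GABAergic neuron markers had 4 lower and 3 higher members of 16. Of the 4 lower, 2 (Lhx6 and Erbb4) passed the level filter only through the heterozygous libraries. Gad1, which makes GABA, rose from 0.717, 0.733 and 0.988 RPKM to 2.57, 1.69 and 2.75 RPKM (1.10 ± 0.15 SE), and Calb2, calretinin, rose by 0.95. Cxcr4, the chemokine receptor of migrating interneurons and Cajal-Retzius cells, rose from 9.43 ± 0.253 to 15.2 ± 1.18 RPKM (SD, n = 3 each). Sst, the neuropeptide somatostatin, fell from 4.52, 4.54 and 2.44 RPKM to 0.265, 0.329 and 1.25 RPKM (-2.02 ± 0.30 SE, limma adjusted p = 0.000683), with replicate 3 nearest to the other genotype in both groups. The list thus holds members with changes of over 2-fold in both directions, and its median was -0.02, or 0.05 with median centring.

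Cajal-Retzius cell markers had 5 of 10 tested members higher, 1 lower and 4 that did not pass, with a median of 0.53. Their summed level was 41.8 to 47.7 RPKM in heterozygous and 59.5 to 71.7 RPKM in homozygous libraries. Lhx5, a factor of the cortical hem and of these cells, went from 1.11, 0.941 and 1.18 RPKM to 3.55, 2.94 and 3.86 RPKM (1.32 ± 0.11 SE), and Nhlh2 from 6.81, 7.83 and 7.49 RPKM to 14.6, 12.5 and 15.7 RPKM (0.90 ± 0.09 SE). Their defining product Reln was the member that was lower, with the uncertain call given above. Markers of the diencephalon, hem and dorsal midline, which flank the cortex, had 7 higher and 0 lower members of 15, with a median of 0.21. Of the 7, 2 (Tcf7l2 and Olig3) had heterozygous means under 0.5 RPKM and passed the level filter only through the homozygous libraries. The share of 7 in 15 is thus partly set by the filter. Barhl2 (1.21), Lhx9 (0.87) and Otx2 (0.68) rose with Olig3. Barhl2 was at 1.04, 0.807 and 0.906 RPKM in heterozygous and 2.75, 2.62 and 2.95 RPKM in homozygous cortex.

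The summed level of the diencephalon, hem and midline markers was 44.6 to 52.3 RPKM in the heterozygous and 62.9 to 68.2 RPKM in the homozygous libraries, with no overlap. Olig3 is itself a member of this sum. The sum moved with the rises of Th, Calb1, Robo3, Crabp2 and Gad1, and its part in them was not tested. In the list of catecholamine and calcium-buffer neuron genes 4 of 6 tested were higher (Th, Calb1, Calb2 and Ddc) and 0 lower; Ddc, the next enzyme after Th, was at 0.249, 0.270 and 0.482 RPKM in heterozygous and 0.805, 0.825 and 1.37 RPKM in homozygous cortex. Of the 11 genes of that list, 5 were below the level filter, and 1 was listed at 0 in the homozygous libraries. Th and Ddc had heterozygous means under 0.5 RPKM and passed the filter only through the homozygous libraries, so the share of 4 in 6 is partly set by the filter and is no support for a rise of the list.

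Markers of cells of other origin were read as well. Microglia and macrophage markers had 4 higher and 0 lower members of 13, with a summed level of 39.5 to 47.1 RPKM in heterozygous and 48.2 to 62.6 RPKM in homozygous libraries. The complement gene C1qa rose from 2.86 ± 0.353 to 4.67 ± 0.838 RPKM (SD, n = 3 each). The higher members were 8 with median centring, 7 with quantile normalization and 2 without homozygous replicate 1. The calls of C1qb and Fcer1g did not hold under several alternatives (limma adjusted p up to 0.175 and 0.141). Endothelial markers had 2 of 16 higher (Slc2a1 and Mfsd2a), pericyte markers 1 of 7 (Rgs5), choroid plexus markers 1 of 7 (Otx2) and meningeal fibroblast markers 0 of 15, and none of these 4 lists had a lower member. The calls of Mfsd2a and Rgs5 were lost under some alternatives (limma adjusted p up to 0.0931 and 0.0628). Of 10 erythroid genes 1 was lower, the transferrin receptor Tfrc (-0.41), which other cell types also express. The summed erythroid level, 2169 to 3247 RPKM in heterozygous and 2241 to 2622 RPKM in homozygous libraries, overlapped.

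Of 36 cell cycle genes 22 were lower and 1 higher, and the median was -0.33. The cyclins of G1 split: Ccnd2, a D-type cyclin of cortical progenitors, went from 134, 134 and 136 RPKM to 61.9, 75.6 and 65.5 RPKM (-0.99 ± 0.07 SE), and Ccnd1 from 29.1, 28.7 and 33.1 RPKM to 53.9, 49.6 and 51.8 RPKM (0.76 ± 0.07 SE). Among genes of S phase and mitosis, Rrm2, a subunit of ribonucleotide reductase, changed by -0.79, Aurkb by -0.51, Cdk1 by -0.46 and Pcna by -0.41. Pcna was at 178, 195 and 197 RPKM in heterozygous and 140, 150 and 137 RPKM in homozygous cortex. The proliferation marker Mki67 overlapped between genotypes, at 21.2, 17.9 and 23.3 RPKM and 11.0, 19.9 and 12.5 RPKM, and its call (limma adjusted p = 0.0441) was lost under 10 alternatives.

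Replication-dependent histone genes, whose RNAs lack a poly(A) tail and are made in S phase, had 49 lower and 0 higher of 61 tested, with a median of -0.43. H2bc18 went from 1614, 1724 and 1427 RPKM to 942, 1007 and 826 RPKM (-0.78 ± 0.09 SE) and the linker histone H1f1 from 2709, 3007 and 2638 RPKM to 2186, 1896 and 1736 RPKM (-0.53 ± 0.09 SE). The count of lower histone genes was 39 with median centring and 37 to 56 when 1 library was left out. Many of these genes are near-identical in sequence, so the values of single members are uncertain. Of the histone genes, 51 lie on chromosome 13, which had the highest share of lower genes of any autosome, 29.7%. Without its histone genes the share was 23.3%, against up to 22.4% on the other autosomes.

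Of 27 tested p53 target genes 10 were higher and 3 lower (Rrm2b, Trp53inp1 and Ckap2), and the median was 0.09. The call of Ckap2 was lost under 9 alternatives (limma adjusted p up to 0.156). The cyclin G1 gene Ccng1 went from 13.2, 15.5 and 16.0 RPKM to 46.1, 29.7 and 44.0 RPKM (1.37 ± 0.15 SE, limma adjusted p = 6.76e-05), and Sesn2 from 0.798, 0.751 and 0.897 RPKM to 2.78, 1.81 and 2.60 RPKM (1.12 ± 0.13 SE). The pro-apoptotic gene Bbc3 (Puma) went from 1.09, 0.956 and 1.28 RPKM to 4.20, 2.01 and 4.44 RPKM (1.27 ± 0.22 SE), and Phlda3 from 1.70, 1.99 and 1.77 RPKM to 6.10, 3.00 and 5.21 RPKM (1.14 ± 0.19 SE). In these 4 genes homozygous replicate 2 was the lowest homozygous library and still above every heterozygous one. The cell cycle inhibitor Cdkn1a (p21) rose from 0.454 ± 0.0751 to 1.00 ± 0.196 RPKM (SD, n = 3 each). Among the higher p53 targets it passed the level filter only through the homozygous libraries. Of 22 apoptosis genes 9 were higher, with Bbc3, Pmaip1 (1.07) and Hrk (0.77) at the head, and 4 lower, among them the kinase Dapk1 (-0.83), the survival gene Bcl2 (-0.44) and Birc5 (-0.30).

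Of 24 genes of the integrated stress response 9 were higher and 0 lower, with a median of 0.10. Sesn2 led, followed by Cebpb (0.49) and Phgdh, of serine synthesis, from 92.4, 86.3 and 83.8 RPKM to 132, 109 and 113 RPKM. Cebpb passed the level filter only through the homozygous libraries. The factor Atf4 itself overlapped between genotypes, at 34.9 ± 9.27 and 25.8 ± 6.08 RPKM (SD, n = 3 each, limma adjusted p = 0.119). Glycolysis and hypoxia genes had 10 of 26 higher and 0 lower, and 5 higher without homozygous replicate 1. Slc2a3, the neuronal glucose transporter, went from 5.003, 5.67 and 5.31 RPKM to 22.5, 16.1 and 18.5 RPKM (1.73 ± 0.11 SE), and the enolase gene Eno1 from 138, 139 and 136 RPKM to 184, 183 and 175 RPKM (0.39 ± 0.05 SE). Of 11 heat shock genes 3 were higher, Bag3 (0.53), Hspe1 (0.26) and Hsp90aa1 (0.19), the last of which lost its call under 7 alternatives. Of 8 immediate early genes 2 were lower, Jun (-0.39) and Ccn1 (-0.57), and 2 higher, Atf3 (0.43) and Ier2 (0.19), but neither rise was called without heterozygous replicate 3. The call of Atf3 was lost under that alternative alone (limma adjusted p = 0.0540) and that of Ier2 under 6 (up to 0.0925).

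Of 76 ribosomal protein genes 46 were higher by small amounts and 0 lower, and the median was 0.18. Rpl27a went from 463, 481 and 466 RPKM to 584, 564 and 569 RPKM (0.28 ± 0.05 SE) and Rpl4 from 690, 682 and 676 RPKM to 805, 827 and 852 RPKM (0.28 ± 0.05 SE). The count of higher members was 57 with median centring, 48 with quantile normalization and 20 without homozygous replicate 1, the female embryo, so it rests on small differences. Their summed level did not overlap, 36342 to 38271 RPKM in heterozygous and 41011 to 43704 RPKM in homozygous libraries. Respiratory chain subunit genes had 4 lower (Ndufs4, Ndufa1, Ndufa12 and Cox5a) and 4 higher (Ndufb11, Uqcr10, Uqcrh and Ndufb9) of 75, and Ndufs4, a complex I subunit gene of 100.2 kb, had means of 30.6 ± 0.214 and 14.8 ± 0.755 RPKM (SD, n = 3 each), the largest change of the list. The 4 higher calls were all lost without homozygous replicate 1, and with median centring 16 members were higher. Of the lower calls, that of Cox5a was lost under 5 alternatives (limma adjusted p up to 0.116).

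In Wnt signalling 5 of 26 genes were lower and 7 higher, and without homozygous replicate 1 the higher genes were 2. Beside Ankrd6, the receptor Fzd8 fell from 8.92 ± 0.343 to 4.73 ± 0.416 RPKM, and the receptor Fzd10 of the cortical hem rose from 1.55 ± 0.178 to 4.15 ± 0.494 RPKM (SD, n = 3 each). In the Notch pathway 6 of 20 genes were higher and 2 lower, Lfng (-0.34) and Numb (-0.23), the latter with a call lost under 9 alternatives (limma adjusted p up to 0.106). Its ligand Jag1 went from 7.33, 7.21 and 8.11 RPKM to 16.0, 14.1 and 14.9 RPKM (0.94 ± 0.07 SE), and the receptor Notch1 did not pass. Of 12 retinoic acid genes 3 were higher, Crabp2, Meis1 and Stra6 (0.27), and 1 was lower, Meis2. The call of Stra6 was lost under 7 alternatives (limma adjusted p up to 0.151).

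Splicing factor genes had 17 of 48 lower and 6 higher (median -0.11). Of the 13 of at least 100 kb 9 were lower, among them Khdrbs2, Msi2, Rbfox3, Celf4 (-0.78) and Rbfox1 (-0.51), and of the 35 shorter ones 8. Srsf4, at 28.1 kb, had the largest fall among the shorter members, from 24.8, 19.1 and 20.1 RPKM to 5.30, 5.99 and 6.73 RPKM (-1.74 ± 0.11 SE, limma adjusted p = 2.22e-06). Elavl2 (-0.84) and Tra2b (-0.38) also fell, and Mbnl2 (0.32) and Srsf6 (0.29) rose. The calls of Rbfox1 and Mbnl2 were lost under 7 and 2 alternatives (limma adjusted p up to 0.124 and 0.0508). Of 35 genes of transcription elongation and DNA topology 2 were lower, Top2a and Ccnt2, and 1 higher, Larp7; the calls of Ccnt2 and Larp7 were lost under 8 and 1 alternatives (limma adjusted p up to 0.116 and 0.0545). Topoisomerase I (Top1), known for its part in reading long genes, was at 98.3, 98.4 and 107 RPKM in heterozygous and 81.1, 95.2 and 97.5 RPKM in homozygous cortex and did not pass (-0.15 ± 0.07 SE, limma adjusted p = 0.144), and Top2a, of dividing cells, fell by 0.51 on the log2 scale.

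Because RNA without a poly(A) tail was kept, small nucleolar RNAs (snoRNAs) could be read as well. Of 75 snoRNAs tested 16 (21.3%) were higher and 0 lower, beside 14.5% and 17.8% of all genes tested. Their median was 0.18, and 4 rose at least 2-fold. Of these, AF357425 went from 0.819, 0.635 and 0.609 RPKM to 2.30, 2.29 and 2.07 RPKM and DQ267100 from 1.99, 2.70 and 3.998 RPKM to 9.46, 7.22 and 9.42 RPKM. Both lie on chromosome 12, as does the non-coding RNA Rian, the maternally expressed host of a snoRNA cluster, which rose from 22.9, 24.3 and 28.4 RPKM to 82.3, 59.8 and 72.2 RPKM (1.48 ± 0.11 SE, limma adjusted p = 7.63e-06). Of 238 long non-coding RNAs 45 (18.9%) were lower and 44 (18.5%) higher, near the shares over all genes tested. Reads from an intron and from the snoRNA within it cannot be told apart in these tables.

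**Figure D4:**
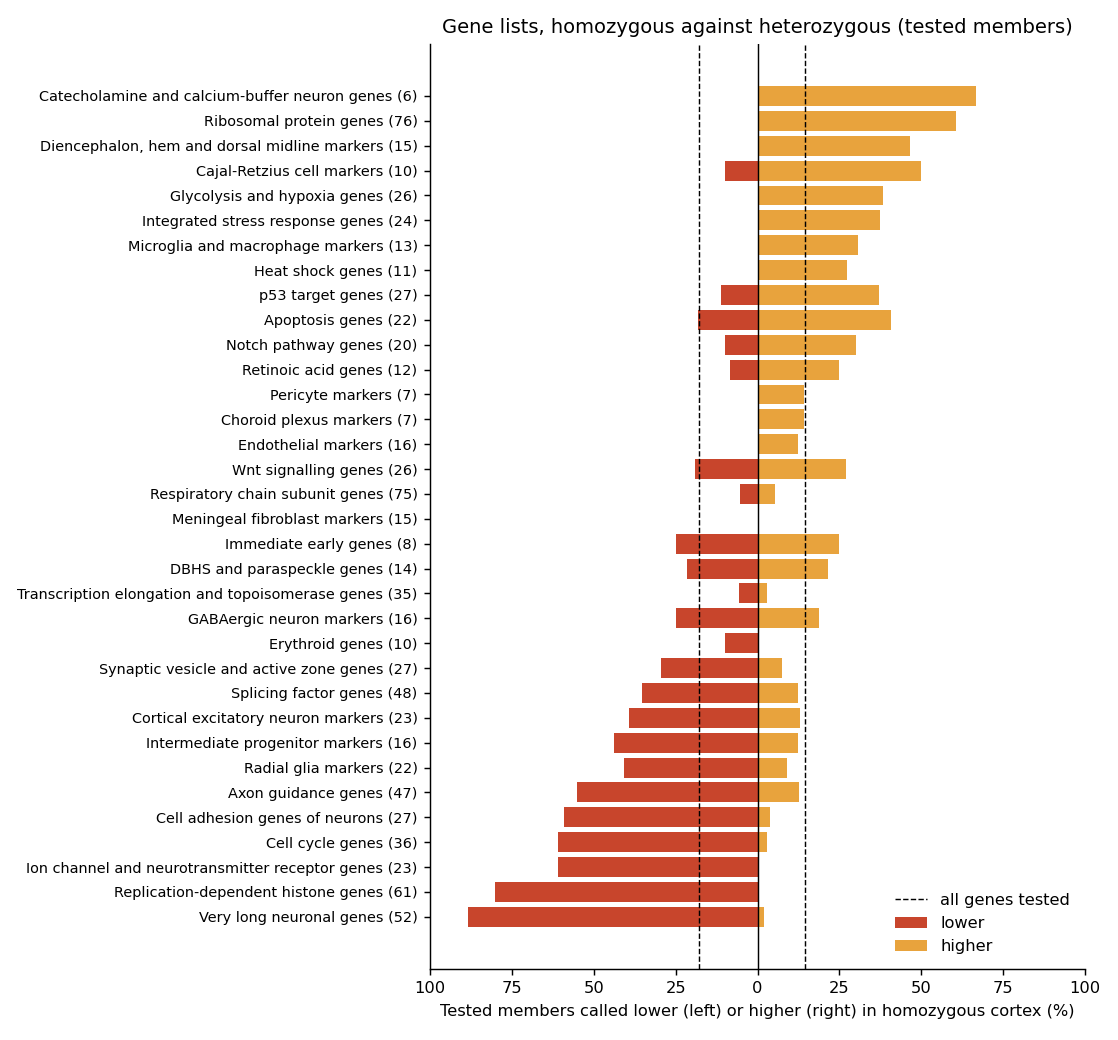
Percentage of tested members of each gene list that were lower (left) or higher (right) in homozygous than in heterozygous cortex, with the number tested in brackets; dashed lines mark all genes tested, 17.8% lower and 14.5% higher. Very long neuronal genes and histone genes reach furthest to the left, and catecholamine genes (4 of 6 tested, 2 of which passed the level filter only through the homozygous libraries) and ribosomal protein genes furthest to the right.

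The step from heterozygous to homozygous cortex was then set against the step from control to heterozygous cortex in a fit of all 9 libraries, in which the heterozygous libraries enter both steps. The second step minus the first was below 0 for 897 genes (7.39%) and above 0 for 642 genes (5.29%) of the 12130 tested (limma adjusted p below 0.05). Among genes of at least 100 kb, 476 of 1622 were lower in the second step and 43 higher. Single libraries bear on these counts: without heterozygous replicate 2 they were 565 and 290. Sex differs between the groups of the first step, and with sex in the model the counts were 570 and 393. The spread of changes over all genes was 0.37 (SD of log2 changes) for the second copy and 0.13 for the first.

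For Sfpq itself the first step was -0.25 ± 0.07 and the second -2.62 ± 0.07 (SE), a difference of -2.37 ± 0.12 (limma adjusted p = 2.86e-06). Epha5 went by 0.22 ± 0.09 and then by -2.24 ± 0.09, and Hs6st2 by 0.04 ± 0.08 and then by -2.41 ± 0.08 (SE). Crabp2 went by -0.27 ± 0.09 and then by 2.39 ± 0.09, and Th by -0.25 ± 0.18 and then by 3.10 ± 0.18 (SE). Sst had the largest negative difference, -2.78 ± 0.49 (SE, limma adjusted p = 0.00320), with controls of 2.11, 1.70 and 2.18 RPKM that lay below the heterozygous and above the homozygous libraries. Pspc1 went by 0.39 ± 0.05 in the first step, which did not pass, and by 0.97 ± 0.05 in the second (SE), and its second step was larger by 0.58 ± 0.09 (SE, limma adjusted p = 0.00169). For Nono the steps did not differ beyond their error (0.07 ± 0.14 SE, limma adjusted p = 0.791).

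**Figure D5:**
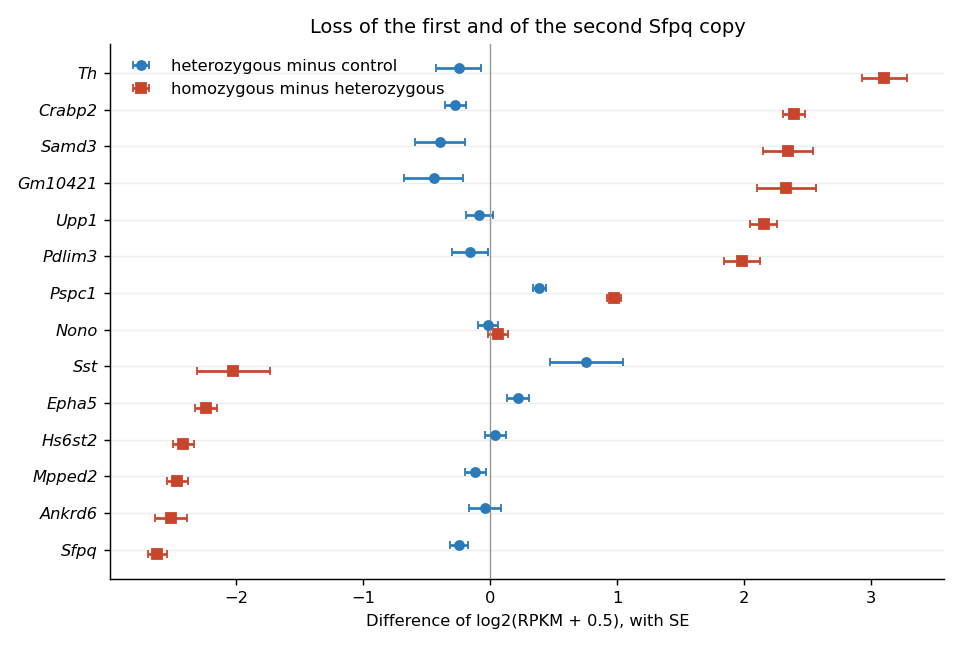
Difference of log2(RPKM + 0.5) with SE for the genes with the largest difference between the steps, and for Sfpq, Pspc1 and Nono: circles, heterozygous minus control; squares, homozygous minus heterozygous. The circles lie near 0 for all but Sst, Gm10421, Samd3 and Pspc1, whose first steps were 0.76, -0.44, -0.39 and 0.39, and the squares of all genes but Nono lie far from 0.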

How the data were processed

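RNA with ribosomal RNA removed was read from cerebral cortex of 9 embryos, and the 3 heterozygous and 3 homozygous libraries were compared. The authors deposited 1 table of RPKM per library for 30978 RefSeq transcripts, per the file headers. Per the submitters' processing notes, CASAVA 1.8.2, TopHat 1.4.1 and the build mm9 were used. The quantifier, its use of strand and its handling of reads with several matches are stated in none of the labels used here, so overlapping, antisense and near-identical genes are uncertain. No counts are in these tables. Depth was estimated from the steps between low values, 68.6% to 72.4% of which lay within 0.1 of a whole read, so a count test could not be used.

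Names came from a RefSeq gene table for 30503 transcripts and from GENCODE M21 for 182, and 293 had none. Spans and exonic lengths are those of GENCODE M21 on GRCm38 or, for 362 genes, of RefSeq genes on GRCm38.p6, which is not the authors' build. Transcripts that averaged 0.5 RPKM or more in the 6 libraries were fitted as log2(RPKM + 0.5) with limma 3.58.1 in R 4.3.3 (empirical Bayes with a mean-variance trend), adjusted by Benjamini-Hochberg over all 17716. Each gene was read from 1 transcript: coding before non-coding, then by span, by exonic length and by mean. Beside the list members given above, Rbfox3 of the splicing factor list, which was lower, passed the level filter only through the heterozygous libraries. Bag3 and, in the Wnt list, Tcf7l2, which were higher, passed it only through the homozygous libraries. The median SE of a log2 change was 0.0811. On simulated data for this comparison (17716 transcripts, 200 changed) the fit found 64.7% of changes of 0.5 and 96.6% of changes of 1, with 4.11% of calls false. For the difference of steps it found 22.0% and 75.3%. In the deposited data 5824 transcripts were called between the mutant genotypes, far more than the 200 simulated, so these shares need not hold there.

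The members of the comparison, the 35 gene lists (980 of 986 entries matched) and the tests were chosen with earlier results of these data known. Named genes are the DBHS genes, the 12 largest falls and rises without overlap that average 1 RPKM or more in the higher genotype, up to 3 members of each list by adjusted p and its first gene, 8 genes of at least 200 kb by adjusted p, 6 genes each way by the difference of steps, 6 long genes that rose and 4 genes with transcripts in opposite directions. Any other gene was named after its values were seen. Results for a few genes that the rule names are not reported here. Alternatives were the pseudocount, the level filter, quantile normalization, median centring, all 9 libraries in 1 fit, other transcripts per gene, sex, the replicate number as a block, and leaving out each library.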

Additional observations from a re-analysis of the deposited data

How the results depend on the processing

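Sfpq kept its direction and its call under every alternative run, at -2.65 to -2.56 when 1 library was left out. The fall of long against short genes also kept its direction under every alternative, at -0.22 to -0.19 with 1 library left out. Its size depended on the level filter: it was -0.21 in the main run and -0.12 with no filter. With a mean of at least 2 RPKM required it was -0.20. Its exact permutation p cannot go below 0.1. Median centring raised the higher transcripts to 4297, the higher genes to 2930 and the genes whose second step was above the first to 1066. With 1 library left out, higher transcripts were 1678 to 2532, higher genes 1167 to 1718, genes with a lower second step 565 to 1000 and those with a higher one 290 to 717. In each of these ranges the lowest count came without heterozygous replicate 2. The higher second steps were 337 without heterozygous replicate 1, 424 without heterozygous replicate 3, 401 without control replicate 2 and 414 without homozygous replicate 1. Sex in the model gave 570 lower and 393 higher second steps. The cause of these shifts was not tested, beyond the smaller number of libraries.

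Signs changed for the called gene Mir100hg and for some values that had not passed. Taking the transcript with the highest mean turned Mir100hg from 1.11 to -0.76, called in both directions, since its transcripts go in opposite directions. For Mrtfb the transcript with the highest mean changed by 1.35 and was called (limma adjusted p = 0.000605). The transcript from which Mrtfb was read did not pass. It changed by -0.23 to -0.14 with 1 library left out (limma adjusted p 0.123 to 0.278). The Nono difference of steps was -0.0415 to 0.172 with 1 library left out. Leaving out libraries moved Col1a1 from -0.44 to 0.17, Ttr from -0.25 to 0.00701, Pdgfra from -0.0847 to 0.16, Hbb-bs from -0.32 to 0.0424, Hba-a1 from -0.18 to 0.16, Notch1 from -0.0106 to 0.25 and Atp5a1 from -0.0146 to 0.0171. Ttr was at 0.00208 with sex in the model, Hba-a1 at 0.0105 and Atp5a1 at 0.0622 with median centring, and Atp5a1 at 0.0257 with quantile normalization. The median of GABAergic markers was 0.24 among those of at least 2 RPKM.

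Samples of the same replicate number had correlations of deviations of 0.07, -0.02 and -0.02, so the numbers were not taken as pairs. With the replicate number as a block, 2969 transcripts were lower and 2310 higher. The RPKM tables hold no counts, so the depth behind single values is known only roughly, and genes under 0.5 RPKM were not tested. With 3 embryos a genotype, the fit found 64.7% of changes of 0.5 on the log2 scale in simulated data with 200 changed transcripts. Far more transcripts were called in the deposited data, so that share need not hold for them.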
